A study of Mus musculus with 12 samples.

Results

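The genes described here are 9 transcripts that mark lymphocytes in bulk liver RNA. They are the 9 of 47069 genes in the deposited table whose symbol is *Cd79a*, *Cd79b*, *Ms4a1*, *Ighm*, *Cd3e*, *Cd3g*, *Nkg7*, *Gzma* or *Klrb1c*, and all 9 passed the filter on low values. The libraries come from mice at P14 and form 4 groups of 3 libraries each. These are isolated hepatocytes of wild type (WT) mice, isolated hepatocytes of Cdk1 Liv-/- mice, whole liver of WT mice and whole liver of Cdk1 Liv-/- mice. The Cdk1 Liv-/- animals carry floxed *Cdk1* together with Albumin-Cre, and the study used them to ask what a block of hepatocyte division does to liver physiology, inflammation and fibrosis. Albumin-Cre acts in hepatocytes and their precursors, so the deletion is not directed at lymphocytes. Lymphocytes are part of the whole organ and may also be carried along with isolated hepatocytes, which was not tested. Levels are given as FPKM, a level scaled to the length of the transcript and to the reads of the library, which can be compared between genes. By the spacing of the lowest values, 1 FPKM on 1 kb of transcript stands for 34.7 to 49.8 reads, depending on the library.

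B cells recognise antigen through a membrane immunoglobulin that signals by way of an attached heterodimer, and T cells through a receptor that signals by way of the CD3 chains. Natural killer (NK) cells lack both kinds of rearranged receptor, carry lectin-like receptors, and kill with granules that also arm cytotoxic T cells. The liver of a young mouse is in transition, since it is a site of blood formation before birth, holds B cell precursors at that stage, and later becomes an organ rich in NK and T cells that sit in the sinusoids.

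For the B lineage, *Cd79a* (ENSMUSG00000003379, chr7:24897381-24902197) and *Cd79b* (ENSMUSG00000040592, chr11:106311341-106314762) encode the signalling heterodimer of the B cell receptor. *Ms4a1* (ENSMUSG00000024673, chr19:11249675-11266241) encodes CD20, and *Ighm* (ENSMUSG00000076617, chr12:113418558-113422730) the constant region of the IgM heavy chain. The T cell genes *Cd3e* (ENSMUSG00000032093, chr9:44998740-45009627) and *Cd3g* (ENSMUSG00000002033, chr9:44969572-44980431) encode CD3 chains and lie near each other on chromosome 9 of the mm10 build. *Nkg7* (ENSMUSG00000004612, chr7:43437073-43438249) encodes a membrane protein of cytotoxic granules, and *Gzma* (ENSMUSG00000023132, chr13:113093825-113100981) granzyme A, a serine protease of the same granules. *Klrb1c* (ENSMUSG00000030325, chr6:128778485-128789215) encodes NK1.1, a lectin-like receptor on NK cells of some mouse strains.

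Since the 9 genes were low together in hepatocytes, the start regions of 4 of them are shown, 1 for the B cell receptor, 1 for CD3 and 2 for the granule genes that part ways in whole liver. RefSeq promoters of build GRCm38.p6 were listed for 6 of the 9 genes, and none were listed for *Cd79b*, *Ms4a1* and *Ighm*. The stretches end just before the gene start and read 5′ to 3′ on the strand of the gene. They are chr7:24897247-24897380 on the plus strand for *Cd79a*, chr9:44980432-44980681 on the minus strand for *Cd3g*, chr7:43436888-43437072 on the plus strand for *Nkg7* and chr13:113100982-113101231 on the minus strand for *Gzma*. Capitals mark every match to the motifs searched.
Cd79a: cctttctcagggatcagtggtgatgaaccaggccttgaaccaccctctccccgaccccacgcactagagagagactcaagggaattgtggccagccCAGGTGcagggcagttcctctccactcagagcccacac
Cd3g: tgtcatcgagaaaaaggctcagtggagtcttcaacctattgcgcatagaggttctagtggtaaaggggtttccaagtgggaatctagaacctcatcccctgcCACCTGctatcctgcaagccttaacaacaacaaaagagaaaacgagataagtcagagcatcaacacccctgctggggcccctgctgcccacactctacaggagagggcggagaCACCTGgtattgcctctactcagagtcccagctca
Nkg7: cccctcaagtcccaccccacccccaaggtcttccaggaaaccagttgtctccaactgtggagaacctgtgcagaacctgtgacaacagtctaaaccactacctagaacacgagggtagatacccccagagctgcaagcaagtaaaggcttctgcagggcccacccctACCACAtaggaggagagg
Gzma: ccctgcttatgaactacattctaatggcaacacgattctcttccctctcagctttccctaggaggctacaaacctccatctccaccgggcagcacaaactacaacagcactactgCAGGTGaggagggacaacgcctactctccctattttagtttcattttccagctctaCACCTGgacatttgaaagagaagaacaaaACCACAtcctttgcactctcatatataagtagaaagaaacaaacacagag
The motifs, searched on both strands in the 300 bases listed per gene, were the ETS letters AGGAAG, the RUNX letters TGTGGT, the T-box letters GGTGTGA, the octamer ATGCAAAT and the E-box letters CAGGTG. Among 32851 promoters of that length, 35.4% held the ETS, 16.8% the RUNX, 3.98% the T-box, 1.74% the octamer and 20.2% the E-box letters. *Gzma* held 2 E-box matches and 1 RUNX match, and *Cd3g* held 2 E-box matches. *Nkg7* held 1 RUNX match in the stretch shown, and 1 ETS and 1 T-box match elsewhere in its window. *Cd79a* held 1 E-box match in the stretch shown and 1 ETS match elsewhere. Of the genes whose stretch is not shown, *Cd3e* held 2 ETS and 1 E-box and *Klrb1c* 3 ETS and 1 RUNX matches. The octamer letters were in none of these 6 windows.

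The labels were checked first. *Cdk1* (ENSMUSG00000019942) stood at 27.88, 20.38 and 28.16 FPKM in WT hepatocytes and at 9.68, 11.8 and 6.87 in Cdk1 Liv-/- hepatocytes. In whole liver it stood at 25.32, 22.69 and 21.5 FPKM in WT and at 11.66, 12.07 and 14.17 in Cdk1 Liv-/- samples, so the genotypes do not overlap in either compartment. Each lineage left transcripts in every library, since none of the 9 genes was at 0 in any of them. The sum of 8 hepatocyte markers, most of it *Alb*, was 79420 to 88220 FPKM in WT hepatocytes and 80450 to 83790 FPKM in WT whole liver, and 53150 to 57640 FPKM and 57040 to 62990 FPKM in Cdk1 Liv-/- mice. Between the compartments of Cdk1 Liv-/- mice, 5 of the 8 were called lower and 1 higher in whole liver, with a median log2 difference of -0.62. Among the 12 libraries, 2 stand apart. *Xist*, the transcript of the inactive X chromosome, was at 158.32 FPKM in replicate 3 of Cdk1 Liv-/- whole liver and at most 0.14 FPKM in the other 11, and the summed level of 4 Y-linked genes was 0 there and 48.3 to 62.1 FPKM elsewhere. The study's methods name males only, which this library does not match. Replicate 3 of WT hepatocytes held more transcript of non-hepatocyte cells than the 2 other WT hepatocyte libraries, at 2.15 times their mean for the sum of the 9 lymphocyte genes, 2.39 times for Kupffer cell genes, 2.28 times for endothelial genes, 2.56 times for stellate cell genes and 3.35 times for erythroid genes. Counts of members called, and the shares of whole liver, are given with and without them where they move.

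*Ighm* of the B cell genes was the most abundant of the 9 transcripts in each of the 4 groups. *Ighm* was at 17.45, 16.28 and 20.41 FPKM in WT whole liver and at 10.91, 19.20 and 16.76 FPKM in Cdk1 Liv-/- whole liver. In isolated hepatocytes *Ighm* was at 4.96, 4.57 and 11.11 FPKM in WT and at 3.69, 2.02 and 2.05 FPKM in Cdk1 Liv-/- samples. The genotypes overlap in whole liver and do not overlap in hepatocytes, where WT replicate 3 is the high library. *Cd79a* was at 4.06, 3.13 and 4.19 FPKM in WT whole liver and at 1.44, 3.09 and 2.40 FPKM in Cdk1 Liv-/- whole liver. Its hepatocyte values were 0.89, 0.47 and 1.60 FPKM in WT and 0.14, 0.20 and 0.10 FPKM in Cdk1 Liv-/- samples. *Cd79a* therefore does not overlap between genotypes in either compartment, although in whole liver the lowest WT library, at 3.13 FPKM, lies close to the highest Cdk1 Liv-/- library, at 3.09 FPKM. The partner chain *Cd79b* was at 4.09, 4.02 and 4.77 FPKM in WT whole liver and at 1.97, 5.0 and 3.85 FPKM in Cdk1 Liv-/- whole liver. In hepatocytes *Cd79b* was at 1.13, 0.60 and 2.66 FPKM in WT and at 0.29, 0.25 and 0.20 FPKM in Cdk1 Liv-/- samples. Replicate 2 of Cdk1 Liv-/- whole liver holds more *Cd79b* than any WT library, so the genotypes overlap there, while they do not in hepatocytes. *Ms4a1* was the least abundant B cell gene, at 0.89, 1.30 and 1.44 FPKM in WT whole liver and at 0.56, 1.30 and 0.65 FPKM in Cdk1 Liv-/- whole liver. Hepatocyte libraries held 0.24, 0.10 and 0.37 FPKM of *Ms4a1* in WT and 0.04, 0.07 and 0.03 FPKM in Cdk1 Liv-/- samples. The latter correspond to about 3 to 8 reads a library, which makes them imprecise.

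Of the CD3 genes, *Cd3g* was the more abundant in each group. It was at 2.40, 3.37 and 1.67 FPKM in WT whole liver and at 2.00, 2.01 and 1.98 FPKM in Cdk1 Liv-/- whole liver. In hepatocytes *Cd3g* was at 0.91, 0.94 and 0.87 FPKM in WT and at 0.44, 0.19 and 0.26 FPKM in Cdk1 Liv-/- samples. *Cd3g* is thus alike in the 3 WT hepatocyte libraries, replicate 3 included, and every Cdk1 Liv-/- hepatocyte library lies below them, whereas in whole liver the Cdk1 Liv-/- values fall within the WT range. *Cd3e* was at 0.41, 0.47 and 0.41 FPKM in WT whole liver and at 0.45, 0.25 and 0.23 FPKM in Cdk1 Liv-/- whole liver. The hepatocyte values of *Cd3e* were 0.10, 0.06 and 0.17 FPKM in WT and 0.07, 0.06 and 0.06 FPKM in Cdk1 Liv-/- samples. The genotypes overlap in both compartments, and the Cdk1 Liv-/- hepatocyte values correspond to about 5 to 7 reads a library.

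Among the NK and cytotoxic genes, *Gzma* differed most between genotypes. It was at 4.57, 7.89 and 4.36 FPKM in WT whole liver and at 1.33, 3.30 and 1.01 FPKM in Cdk1 Liv-/- whole liver. In hepatocytes *Gzma* was at 2.02, 1.00 and 2.81 FPKM in WT and at 0.28, 0.25 and 0.25 FPKM in Cdk1 Liv-/- samples. Every Cdk1 Liv-/- library lies below every WT library of the same compartment. *Nkg7*, another gene of the same granules, was at 1.75, 3.10 and 1.43 FPKM in WT whole liver and at 1.58, 2.16 and 2.43 FPKM in Cdk1 Liv-/- whole liver. Hepatocyte values of *Nkg7* were 0.43, 0.51 and 1.03 FPKM in WT and 0.38, 0.25 and 0.33 FPKM in Cdk1 Liv-/- samples. The genotypes overlap in whole liver and are set apart in hepatocytes only by the step from 0.38 to 0.43 FPKM. *Klrb1c* was at 0.69, 0.87 and 0.56 FPKM in WT whole liver and at 0.52, 1.25 and 0.79 FPKM in Cdk1 Liv-/- whole liver. In hepatocytes *Klrb1c* was at 0.39, 0.21 and 0.38 FPKM in WT and at 0.14, 0.14 and 0.09 FPKM in Cdk1 Liv-/- samples. As for *Nkg7*, the genotypes of *Klrb1c* overlap in whole liver and do not overlap in hepatocytes.

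**Figure D1:**
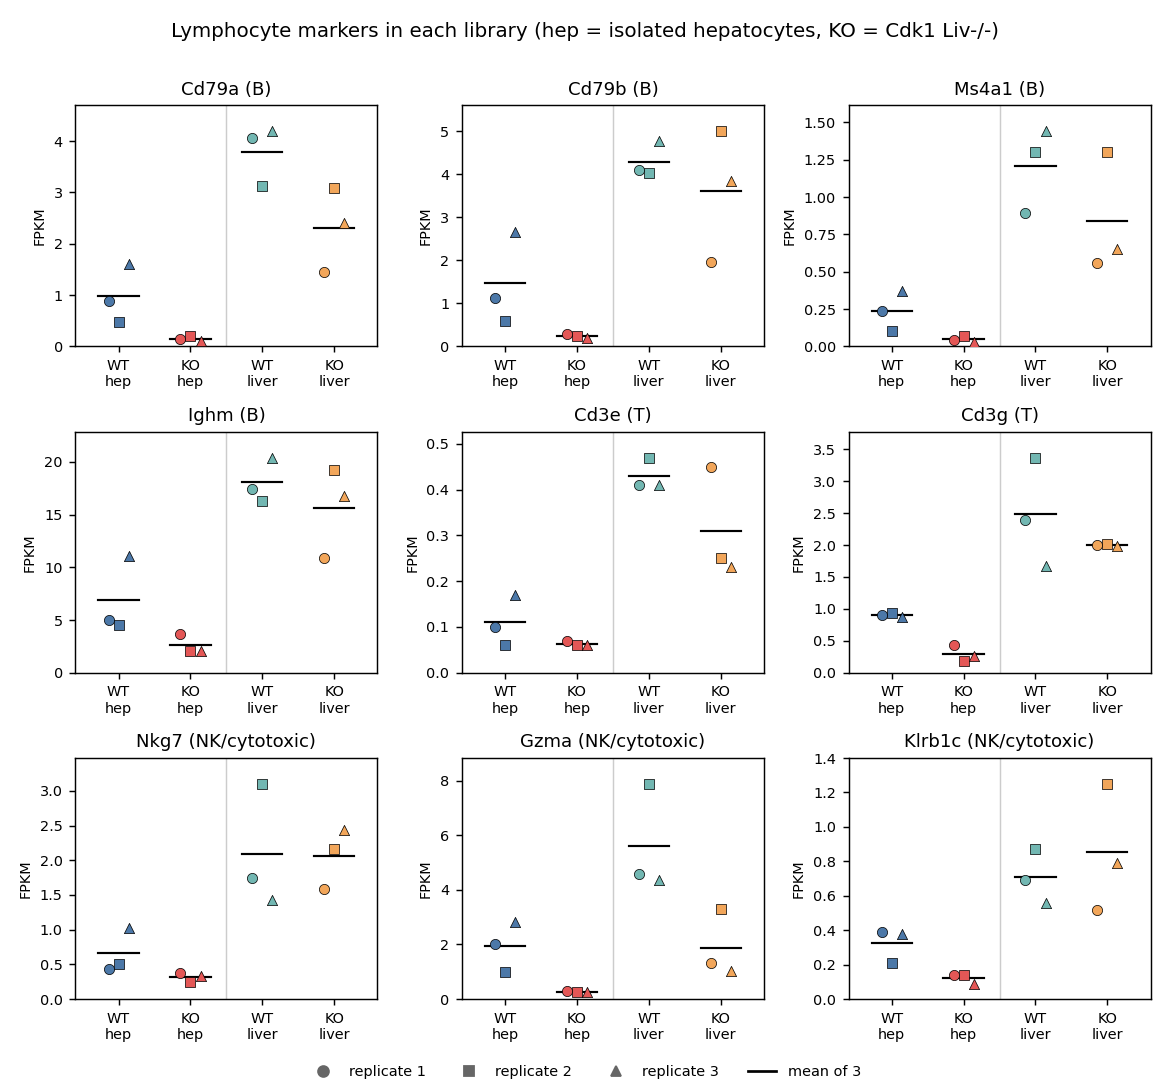
FPKM (linear axis from 0) of each of the 9 lymphocyte genes in each of the 12 libraries, by compartment and genotype (KO is Cdk1 Liv-/-), with each point a library and each line the mean of 3. *Gzma* is low in all Cdk1 Liv-/- libraries of both compartments, from 0.25 to 3.30 FPKM, while *Nkg7* and *Klrb1c* overlap between genotypes in whole liver.

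By mean FPKM (± SD, n = 3), the order in WT whole liver was *Ighm* at 18.0 ± 2.13, *Gzma* at 5.61 ± 1.98, *Cd79b* at 4.29 ± 0.414, *Cd79a* at 3.79 ± 0.578, *Cd3g* at 2.48 ± 0.853, *Nkg7* at 2.09 ± 0.886, *Ms4a1* at 1.21 ± 0.286, *Klrb1c* at 0.707 ± 0.156 and *Cd3e* at 0.430 ± 0.0346. Of these neighbours, the libraries were apart between *Ighm* and *Gzma*, between *Ms4a1* and *Klrb1c* and between *Klrb1c* and *Cd3e*, and overlapped for the rest. *Ighm* was again the highest in Cdk1 Liv-/- whole liver, at 15.6 ± 4.26 FPKM, and *Gzma* took the sixth place at 1.88 ± 1.24, after *Cd79b* at 3.61 ± 1.53, *Cd79a* at 2.31 ± 0.829, *Nkg7* at 2.06 ± 0.434 and *Cd3g* at 2.00 ± 0.0153. *Klrb1c* at 0.853 ± 0.369, *Ms4a1* at 0.837 ± 0.404 and *Cd3e* at 0.310 ± 0.122 FPKM closed that order. Its neighbours were apart between *Ighm* and *Cd79b* and between *Ms4a1* and *Cd3e*. In WT hepatocytes the order was *Ighm* at 6.88 ± 3.67, *Gzma* at 1.94 ± 0.907, *Cd79b* at 1.46 ± 1.07, *Cd79a* at 0.987 ± 0.571, *Cd3g* at 0.907 ± 0.0351, *Nkg7* at 0.657 ± 0.326, *Klrb1c* at 0.327 ± 0.101, *Ms4a1* at 0.237 ± 0.135 and *Cd3e* at 0.110 ± 0.0557 FPKM. Only *Ighm* and *Gzma*, and *Nkg7* and *Klrb1c*, were apart as neighbours. For Cdk1 Liv-/- hepatocytes, *Ighm* at 2.59 ± 0.956 FPKM stood apart from *Nkg7* at 0.320 ± 0.0656, *Cd3g* at 0.297 ± 0.129, *Gzma* at 0.260 ± 0.0173, *Cd79b* at 0.247 ± 0.0451, *Cd79a* at 0.147 ± 0.0503 and *Klrb1c* at 0.123 ± 0.0289, whose neighbours overlap. *Cd3e* at 0.0633 ± 0.00577 and *Ms4a1* at 0.0467 ± 0.0208 FPKM were the lowest, apart from *Klrb1c* and overlapping each other. *Gzma* thus moved from the second place in both WT groups to the fourth and the sixth in the Cdk1 Liv-/- groups.

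The comparison of whole liver with isolated hepatocytes asks in which compartment the lymphocyte transcripts lie. All 9 genes were higher in whole liver, with no overlap between compartments in either genotype. That pattern was seen in 20.7% of the 17386 genes tested in WT and in 40.3% in Cdk1 Liv-/- mice. Differences were tested with limma on log2(FPKM + 0.5), two-sided, with p-values adjusted over all genes tested and a gene counted as called where its adjusted p did not exceed 0.1. The p-values measure spread between 3 libraries a group. All 9 of 9 genes were called higher in whole liver of Cdk1 Liv-/- mice, beside 35.9% of all genes called higher and 8.86% called lower. *Cd3g* was higher by 1.66 (SE 0.14, adjusted p = 0.000940) and *Ighm* by 2.39 (SE 0.28, adjusted p = 0.00218) on the log2 scale. The smallest difference on this scale was that of *Cd3e*, at 0.51 (SE 0.12, adjusted p = 0.0227). In between lay *Cd79b* at 2.38, *Cd79a* at 2.08, *Nkg7* at 1.63, *Gzma* at 1.53, *Ms4a1* at 1.25 and *Klrb1c* at 1.08, and the median of the 9 was 1.63 beside 0.19 over all genes. The added 0.5 FPKM lies above the Cdk1 Liv-/- hepatocyte mean of each gene but *Ighm*, and it shrinks differences of low genes. Over the alternative settings *Ms4a1* ran from 0.790 to 2.60 and *Cd3e* from 0.297 to 1.29. The order of sizes is therefore that of this scale, and the same limit holds in the comparisons below.

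In WT mice 2 of 9 genes were called higher in whole liver, *Ms4a1* by 1.22 (SE 0.19, adjusted p = 0.0840) and *Cd3e* by 0.61 (SE 0.09, adjusted p = 0.0840), beside 1.42% of all genes called higher and 0.104% called lower. The other 7 differences were of like size and did not pass, from 0.55 for *Klrb1c* (SE 0.15, adjusted p = 0.162) to 1.59 for *Cd79a* (SE 0.29, adjusted p = 0.102). *Cd79b* was at 1.42, *Ighm* at 1.43, *Gzma* at 1.35, *Nkg7* at 1.15 and *Cd3g* at 1.04. The median over the 9 was 1.22 and that over all genes 0.10. The count moves with each library, since 9 of 9 are called without replicate 3 of WT hepatocytes and 0 without any 1 of the other 5. It was 0 with median-ratio scaling between libraries and 1 with the same sum in every library.

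Set against whole liver, the B and NK shares in WT hepatocyte libraries moved with replicate 3 and the T share did not. The summed mean FPKM of the B cell genes in WT hepatocytes was 35.0% of that in WT whole liver, that of the T cell genes 34.9% and that of the NK and cytotoxic genes 34.8%. Without WT hepatocyte replicate 3, left out after seeing the data, these shares were 23.7%, 34.5% and 27.1%, The corresponding shares in Cdk1 Liv-/- mice were 13.5%, 15.6% and 14.7%. Each of these is a ratio of 2 group means, and *Ighm* makes up most of the B cell sum, so they are descriptions without a test. For other cells of the liver the WT share was 73.1% for Kupffer cell genes, 107% for endothelial genes, 63.2% for stellate cell genes and 22.1% for erythroid genes, and without replicate 3 it was 50%, 75.1%, 41.6% and 12.4%. They were lower in Cdk1 Liv-/- mice, at 23.3%, 29.6%, 18.5% and 7.12%. With or without that library, each lymphocyte share lay above the erythroid share and below those of the other 3 lists.

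**Figure D2:**
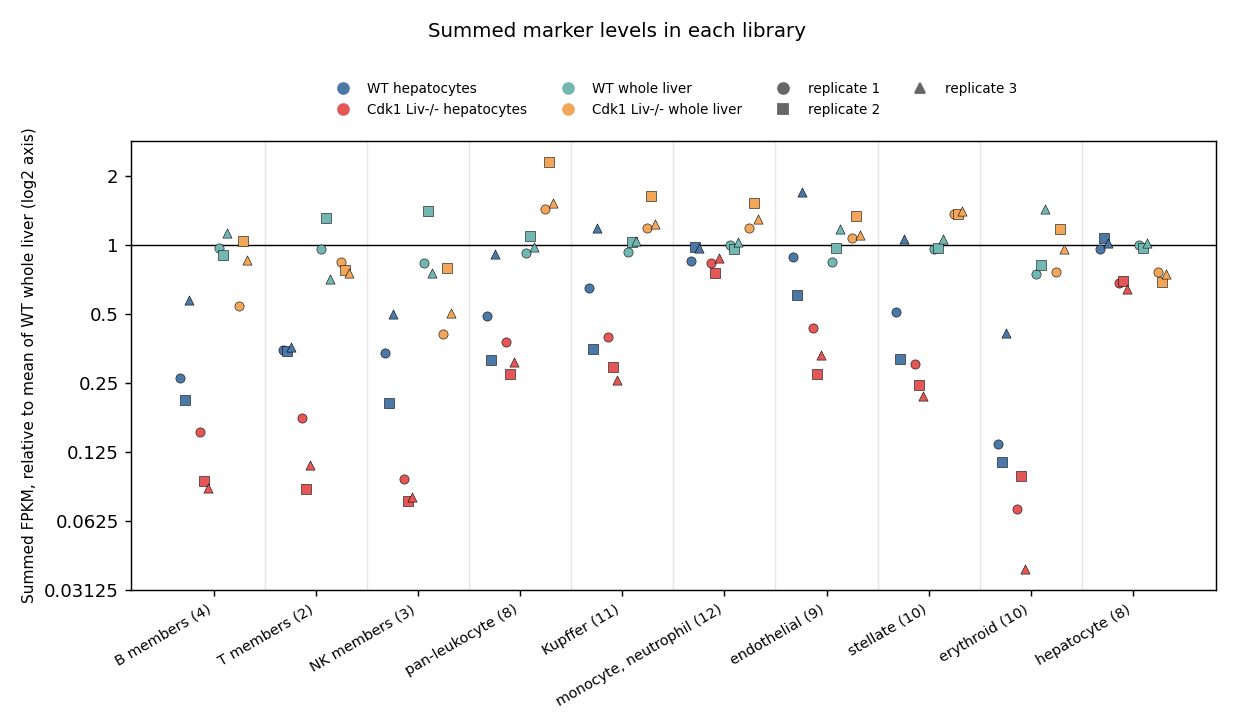
Summed FPKM of the B, T and NK members and of other cell type lists in each library, divided by the mean of WT whole liver (log2 axis), with each point a library and the number of genes in brackets. Cdk1 Liv-/- hepatocytes lie lowest for the 3 lymphocyte groups, with sums of 2.38 to 4.16 FPKM for B, 0.25 to 0.51 FPKM for T and 0.64 to 0.80 FPKM for NK members.

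Between genotypes, the isolated hepatocytes of Cdk1 Liv-/- mice held less of the lymphocyte transcripts than those of WT mice. Of the 9 genes, 6 were called lower and 0 higher, beside 6.61% of all genes called lower and 12.1% called higher, and 8 of 9 did not overlap between genotypes, with the lower level in Cdk1 Liv-/- samples, as did 13.4% of all genes. *Gzma* fell by 1.61 on the log2 scale (SE 0.29, adjusted p = 0.0224), *Cd3g* fell by 0.83 (SE 0.15, adjusted p = 0.0209) and *Cd79a* fell by 1.13 (SE 0.28, adjusted p = 0.0548). These 3 genes cover the NK, T and B lineages. *Cd79b* fell by 1.26 (SE 0.37, adjusted p = 0.0860), *Klrb1c* fell by 0.40 (SE 0.12, adjusted p = 0.0876) and *Ighm* fell by 1.19 (SE 0.38, adjusted p = 0.0990). The log2 difference was -0.41 for *Ms4a1* (SE 0.15, adjusted p = 0.127), -0.46 for *Nkg7* (SE 0.21, adjusted p = 0.206) and -0.11 for *Cd3e* (SE 0.09, adjusted p = 0.462), none of which passed. The median over the 9 genes was -0.83 and that over all genes 0.05. In bulk samples, fewer cells of a type and less RNA per cell cannot be told apart.

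Firmness differed between the 6 genes. In the 6 fits that each lack a library, *Cd3g* and *Gzma* were called in 6 of 6, *Cd79a* and *Cd79b* in 2, *Klrb1c* in 1 and *Ighm* in 0. The count of 6 became 2, *Cd3g* and *Gzma*, without WT replicate 1 or without Cdk1 Liv-/- replicate 1, 2 or 3. Without WT hepatocyte replicate 3, the library with more transcript of other cell type lists, 4 genes were called. Without WT replicate 2 there were again 6 calls, with *Ms4a1* in place of *Ighm*. With no filter on low values 1 gene was called, and 2 without moderation of the spread.

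The lists of Kupffer, endothelial, stellate and erythroid cell genes also had medians below 0 between genotypes in hepatocytes, and that of cholangiocytes did not. The 9 lymphocyte genes summed to 11.07, 8.46 and 21.0 FPKM in the WT libraries and to 5.47, 3.43 and 3.37 FPKM in the Cdk1 Liv-/- libraries. Over 11 Kupffer cell genes, of which *Cd5l* had the highest mean over all 12 libraries, the sums were 374.1, 203.2 and 688.6 FPKM in WT and 228.5, 169.8 and 148.8 FPKM in Cdk1 Liv-/- samples, and 1 gene was called lower, or 5 with median-ratio scaling, with a list median of -1.11. Over 9 sinusoidal endothelial genes, led by *Stab1* in the mean over all 12 libraries though not in hepatocytes, they were 158.4, 108.0 and 304.3 FPKM and 77.16, 48.39 and 58.89 FPKM, with 8 called lower and a median of -1.66. So the endothelial sums do not overlap between genotypes, as for the lymphocyte sums, and the Kupffer cell sums do. Over 10 stellate cell genes, led by *Dcn*, the sums were 211.4, 131.8 and 438.9 FPKM and 125.3, 101.2 and 90.64 FPKM, with 3 called lower and a median of -0.91. Over 10 erythroid genes, led by *Hbb-bs* in the mean over all 12 libraries, they were 210.4, 175.4 and 645.4 FPKM and 109.6, 151.8 and 59.58 FPKM, with 3 called lower and a median of -1.29. Leaving out single libraries gave counts called lower of 0 to 10 for Kupffer cell, 3 to 9 for endothelial, 0 to 7 for stellate cell and 1 to 3 for erythroid genes. The highest was reached without WT replicate 2 for the first 3 lists and without Cdk1 Liv-/- replicate 2 for the erythroid genes, and without WT replicate 3 the counts were 0, 7, 0 and 1. The list medians without WT replicate 3 were, in the same order, -0.71, -1.21, -0.55 and -0.90. No gene of these 4 lists was at 0 in all libraries. By contrast 5 of 6 cholangiocyte genes were called higher, with a median of 1.05, and of 12 monocyte and neutrophil genes 1 was called higher and 0 lower, with a median of -0.18. Without WT replicate 3 the monocyte and neutrophil median turned to 0.21. Whether cells carried along with isolated hepatocytes had a part in the lower lymphocyte levels was not tested. As a percentage of the endothelial sum of the same library, the 9 lymphocyte genes were at 6.99, 7.83 and 6.90 in WT hepatocytes and at 7.09, 7.09 and 5.72 in Cdk1 Liv-/- hepatocytes, so that the genotypes overlap. *Ighm* makes up most of that sum, and the NK and cytotoxic genes alone, at 1.79, 1.59 and 1.39 in WT and at 1.04, 1.32 and 1.14 in Cdk1 Liv-/- hepatocytes, do not overlap. As a percentage of the Kupffer cell sum all 9 lymphocyte genes together were at 2.96, 4.16 and 3.05 in WT hepatocytes and at 2.39, 2.02 and 2.26 in Cdk1 Liv-/- hepatocytes, and do not overlap, although the T cell genes alone do, at 0.270, 0.492 and 0.151 in WT and at 0.223, 0.147 and 0.215 in Cdk1 Liv-/- hepatocytes. All 8 genes of the pan-leukocyte list had log2 differences below 0 in hepatocytes, with a median of -0.64, and 0 were called with limma (1 at an unadjusted p under 0.05). Without WT replicate 3 that median was -0.22, and *Coro1a* of this list reached 0.22 with a library left out. Per FPKM of *Ptprc*, the gene of the leukocyte antigen CD45, the 9 lymphocyte genes were at 3.28, 5.76 and 5.47 in WT hepatocytes and at 3.58, 2.09 and 2.17 in Cdk1 Liv-/- hepatocytes, with overlap. The NK and cytotoxic genes alone, at 0.843, 1.17 and 1.1 in WT and at 0.523, 0.39 and 0.432 in Cdk1 Liv-/- hepatocytes, do not overlap. Those of the B and of the T lineage alone do. These percentages and the ratios given further on were chosen after the values were seen and carry no test.

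In whole liver, where no isolation step comes between tissue and RNA, 2 of 9 genes were called lower in Cdk1 Liv-/- mice and 0 higher, beside 7.53% of all genes called lower and 38% called higher. The same 2 genes were those that did not overlap, as did 8.94% of all genes in that direction. *Gzma* fell by 1.43 on the log2 scale (SE 0.40, adjusted p = 0.0392), and *Cd79a* fell by 0.65 (SE 0.24, adjusted p = 0.0882), each lower in 3 of 3 libraries than in any WT library. The other B cell genes were at -0.38 for *Ms4a1* (adjusted p = 0.257), -0.30 for *Cd79b* (adjusted p = 0.466) and -0.23 for *Ighm* (adjusted p = 0.431). The T cell genes were at -0.22 for *Cd3g* (adjusted p = 0.454) and -0.21 for *Cd3e* (adjusted p = 0.221). None of these 5 differences passed with all libraries, and each is smaller than that of *Cd79a*. *Klrb1c* was at 0.14 (SE 0.22, adjusted p = 0.646), and *Nkg7* at 0.017 (SE 0.26, adjusted p = 0.966), which turns to -0.16 with median-ratio scaling and runs from -0.17 to 0.28 when a library is left out. The median over the 9 genes was -0.23 beside 0.18 over all genes. That shift of all genes goes to 0.01 with median-ratio scaling, under which *Gzma* is at -1.60 and *Cd79a* at -0.83, both still called, *Ighm* at -0.45, *Cd79b* at -0.49 and *Klrb1c* at 0.01.

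The whole-liver calls depend on single libraries. Leaving out the *Xist*-positive sample, replicate 3 of the Cdk1 Liv-/- group, gives 0 called genes, and *Gzma* then has an adjusted p of 0.102. Without WT replicate 2, the library with the most *Gzma*, 0 are called, and *Gzma* has an adjusted p of 0.109. Without WT replicate 1 only *Gzma* is called. Without WT replicate 3 the calls are *Gzma* and *Cd3g* (adjusted p = 0.0970), and without Cdk1 Liv-/- replicate 1 *Gzma* and *Cd3e* (adjusted p = 0.0360), both CD3 genes being lower. Leaving out Cdk1 Liv-/- replicate 2 gives 3 calls, *Cd79a*, *Gzma* and *Ms4a1*. So *Gzma* is called in 4 of these 6 fits and *Cd79a* in 1. Over 16 settings the log2 difference of *Gzma* was -1.83 to -1.17, with adjusted p from 0.0136 to 0.172. The count was 0 with no filter on low values and 0 without moderation.

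**Figure D3:**
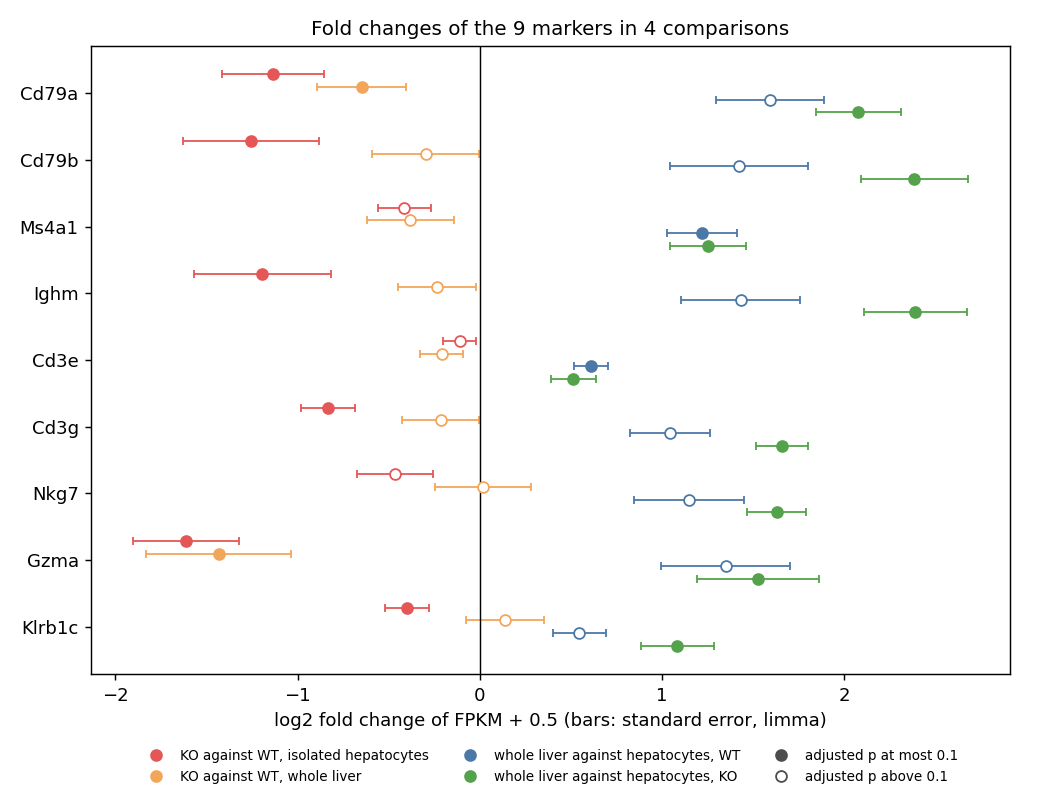
Log2 difference of each of the 9 lymphocyte genes from limma in 4 comparisons (KO is Cdk1 Liv-/-), with the standard error as a bar (n = 3 libraries a group) and filled points at an adjusted p not above 0.1. Between genotypes *Gzma* is the lowest of the 9 in hepatocytes, at -1.61, and in whole liver, at -1.43, and all 9 lie above 0 in whole liver against hepatocytes.

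The summed levels in whole liver overlap between genotypes for all 3 lineages. The B cell genes summed to 26.49, 24.73 and 30.81 FPKM in WT and to 14.88, 28.59 and 23.66 FPKM in Cdk1 Liv-/- whole liver. The T cell genes summed to 2.81, 3.84 and 2.08 FPKM in WT and to 2.45, 2.26 and 2.21 FPKM in Cdk1 Liv-/- whole liver, all within the WT range. The NK and cytotoxic genes summed to 7.01, 11.86 and 6.35 FPKM in WT and to 3.43, 6.71 and 4.23 FPKM in Cdk1 Liv-/- whole liver, with the overlap due to Cdk1 Liv-/- replicate 2. The mean sum of these NK and cytotoxic genes in Cdk1 Liv-/- whole liver was 57.0% of WT, and *Gzma* is the largest term of it in WT.

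A limma fit of all 12 libraries tested whether the genotype difference itself depends on the compartment. Of the 9 genes 0 were called, beside 2.35% of all genes called with the higher difference in hepatocytes and 7.49% with the lower. At an unadjusted p under 0.05 there was 1, *Cd3g* at -0.62 (SE 0.27, adjusted p = 0.193), and without moderation 0 were called. *Ighm* was at -0.96 (adjusted p = 0.231), *Cd79b* at -0.96 (adjusted p = 0.280), *Klrb1c* at -0.54 (adjusted p = 0.244) and *Cd79a* at -0.48 (adjusted p = 0.501). Thus 8 of 9 were below 0, with the exception of *Cd3e* at 0.10, and the median was -0.48 beside -0.11 over all genes. *Gzma* was at -0.18 (SE 0.52, adjusted p = 0.874), close to 0 with a wide error. Its mean of 0.260 FPKM in Cdk1 Liv-/- hepatocytes lies below the added 0.5 FPKM, which shrinks its hepatocyte difference. Over the alternative settings that difference ran from -2.396 to -1.175, and the one in whole liver from -1.831 to -1.165. On this scale, a hepatocyte difference larger than that of whole liver is therefore not shown for any of the 9 genes.

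Ratios within a library do not depend on scaling between libraries. The ratio of *Gzma* to *Nkg7* in FPKM was 4.70, 1.96 and 2.73 in WT hepatocytes and 2.61, 2.55 and 3.05 in WT whole liver. The same ratio in Cdk1 Liv-/- mice was 0.737, 1.00 and 0.758 in hepatocytes and 0.842, 1.53 and 0.416 in whole liver. All 6 WT libraries lie above all 6 Cdk1 Liv-/- libraries, whichever compartment they come from. In Cdk1 Liv-/- hepatocytes the ratios rest on about 8 to 10 reads of *Gzma*, 8 to 12 of *Nkg7* and 8 to 14 of *Klrb1c* a library, which makes them imprecise. The ratio of *Gzma* to *Klrb1c* was 5.18, 4.76 and 7.39 in WT hepatocytes and 6.62, 9.07 and 7.79 in WT whole liver. Cdk1 Liv-/- samples had ratios of 2.00, 1.79 and 2.78 in hepatocytes and of 2.56, 2.64 and 1.28 in whole liver, again with no overlap. By contrast the ratio of *Klrb1c* to *Nkg7* ran from 0.369 to 0.907 in WT and from 0.273 to 0.560 in Cdk1 Liv-/- hepatocytes, and from 0.281 to 0.394 in WT and from 0.325 to 0.579 in Cdk1 Liv-/- whole liver, with overlap in both. *Gzma*, whose start region is printed above beside that of *Nkg7*, was thus low relative to both other NK genes in Cdk1 Liv-/- libraries.

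Within the B cell genes, *Ighm* was high relative to *Cd79a* in Cdk1 Liv-/- samples. Their ratio was 4.30, 5.20 and 4.87 in WT and 7.58, 6.21 and 6.98 in Cdk1 Liv-/- whole liver. In hepatocytes it was 5.57, 9.72 and 6.94 in WT and 26.4, 10.1 and 20.5 in Cdk1 Liv-/- samples. The genotypes do not overlap in either compartment, although the Cdk1 Liv-/- hepatocyte ratios rest on about 5 to 11 reads of *Cd79a* a library. *Cd79b* to *Cd79a*, the ratio of the heterodimer's chains, was 1.01, 1.28 and 1.14 in WT and 1.37, 1.62 and 1.60 in Cdk1 Liv-/- whole liver, without overlap, and overlapped in hepatocytes. *Cd3g* to *Cd3e* ran from 4.07 to 7.17 in WT and from 4.44 to 8.61 in Cdk1 Liv-/- whole liver, with overlap.

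**Figure D4:**
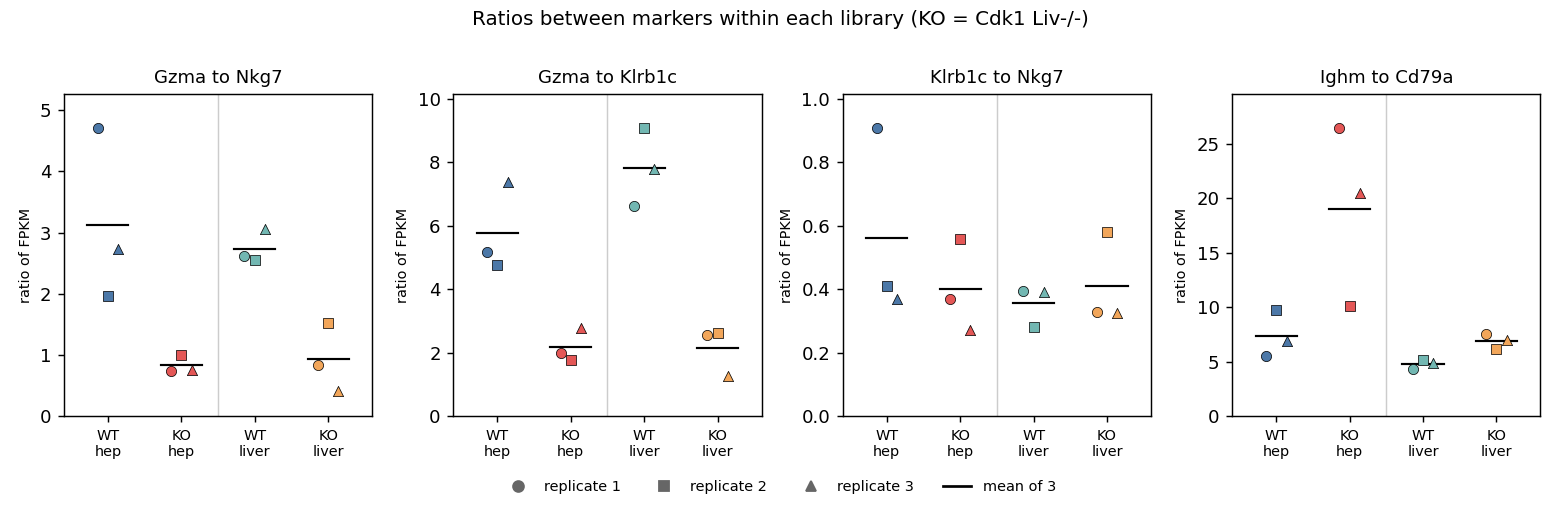
Ratios of FPKM within each library (linear axis from 0), by compartment and genotype (KO is Cdk1 Liv-/-), with each point a library and each line the mean of 3. *Gzma* to *Nkg7* is at least 1.96 in the 6 WT libraries and at most 1.53 in the 6 Cdk1 Liv-/- libraries.

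Relative to all leukocytes, the 9 genes made up less in Cdk1 Liv-/- whole liver. *Ptprc* was at 3.48, 3.70 and 3.50 FPKM in WT and at 4.76, 8.20 and 4.70 FPKM in Cdk1 Liv-/- whole liver. It rose by 0.61 (adjusted p = 0.0705), a call made in 3 of 6 fits with a library left out. All 8 genes of the pan-leukocyte list were called higher there, with a median of 0.68, and 4 of 8 with median-ratio scaling, under which *Ptprc* is at 0.41 and not called (adjusted p = 0.187). With a library left out, 3 to 8 were called, the 3 without WT replicate 1. The sum of the 9 lymphocyte genes per FPKM of *Ptprc* was 10.4, 10.9 and 11.2 in WT and 4.36, 4.58 and 6.40 in Cdk1 Liv-/- whole liver, without overlap. Of the monocyte and neutrophil list, 9 of 12 genes were called higher in Cdk1 Liv-/- whole liver and 0 lower, with a median of 1.30, and 4 to 11 higher with a library left out, the 4 without WT replicate 2. Its sums were 890.9, 850.7 and 913.0 FPKM in WT and 1050, 1353 and 1146 FPKM in Cdk1 Liv-/- whole liver, most of it *Fn1*, which hepatocytes also express. The Kupffer cell sums were 538.6, 593.4 and 600.1 FPKM in WT and 688.2, 944.9 and 716.1 FPKM in Cdk1 Liv-/- whole liver, with 4 of 11 genes called higher, a share near the 38% of all genes, and 2 of 11 with median-ratio scaling. Relative to the Kupffer cell sum the 9 lymphocyte genes were at 6.74, 6.81 and 6.54% in WT and at 3.02, 3.97 and 4.20% in Cdk1 Liv-/- whole liver, without overlap. The T cell genes alone overlap there, at 0.522, 0.647 and 0.347% in WT and at 0.356, 0.239 and 0.309% in Cdk1 Liv-/- whole liver. The part of the levels of *Ptprc* and of other leukocytes in these ratios was not tested.

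Other genes of the same lineages were read from lists of B, T and NK cell genes. Of 20 B cell genes other than the members, 4 were called higher and 3 lower in Cdk1 Liv-/- whole liver, beside 38% and 7.53% of all genes. The list median was -0.14, and 2 were called higher and 7 lower with median-ratio scaling. *Fcer2a*, which encodes the IgE receptor CD23 of mature B cells, fell by 0.39. *Cr2*, a complement receptor, and *Ralgps2* rose by 0.93 and 0.59, and in hepatocytes by 1.21 and 0.63. Unlike the B cell members, neither was higher in whole liver than in hepatocytes, with means of 1.18 FPKM for *Cr2* in Cdk1 Liv-/- hepatocytes and 0.803 FPKM in Cdk1 Liv-/- whole liver, and of 11.1 and 10.3 FPKM for *Ralgps2*. With a library left out, 2 to 6 were called higher and 1 to 6 lower in whole liver, the 6 lower without Cdk1 Liv-/- replicate 2 and the 6 higher without Cdk1 Liv-/- replicate 1. The whole-liver median was -0.29 and 0.029 in these 2 fits. In hepatocytes 2 of the 20 were called higher and 3 lower, beside 12.1% and 6.61% of all genes, with a list median of -0.49. Among those called lower were *Bank1* at -1.0 and *Fcrl1* at -0.49, each called in 1 of 6 fits with a library left out. The count called lower there was 7 without WT replicate 2, 1 without WT replicate 3 and 0 without any 1 of the other 4 libraries. Without WT replicate 3 the median was -0.29. Against hepatocytes, 3 of 20 were called higher in whole liver in WT and 16 of 20 in Cdk1 Liv-/- mice, where all 4 B cell members were. Over all genes these shares were 1.42% in WT and 35.9% in Cdk1 Liv-/- mice.

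The immunoglobulin genes did not share a direction in whole liver. Beside *Ighm*, which did not pass in whole liver, *Ighd*, the heavy chain of the IgD that naive B cells carry with IgM, was at 1.68, 1.92 and 2.00 FPKM in WT and at 0.62, 1.23 and 0.81 FPKM in Cdk1 Liv-/- whole liver. *Ighd* fell by 0.79 (adjusted p = 0.0196), and the light chain gene *Iglc2* fell by 0.62. Of the related light chain genes, *Iglc1* fell by 0.56, in 1 of 6 fits with a library left out, and *Iglc3* was at 0.0029 and not called, both named after their values were seen. *Jchain*, which encodes the chain that joins secreted IgM or IgA, rose by 0.35 (adjusted p = 0.0189). *Igkc* was the most abundant light chain, at 12.52, 14.42 and 16.10 FPKM in WT and at 7.29, 15.61 and 10.64 FPKM in Cdk1 Liv-/- whole liver, with overlap. Of the 12 genes of the list 6 could be tested, with 1 called higher and 3 lower in whole liver, beside 38% and 7.53% of all genes. In hepatocytes all 6 lay below 0, with a median of -0.28, and 0 were called with limma (2 at an unadjusted p under 0.05). *Ighe* was at 0 in all libraries. Of the 8 B cell precursor genes 5 were tested, and *Igll1*, of the surrogate light chain, fell by 0.83 in Cdk1 Liv-/- whole liver (adjusted p = 0.0526), in 2 of 6 fits with a library left out. In hepatocytes 1 of the 5, *Dntt*, was called higher, at 0.37 (adjusted p = 0.0736), in 1 of 6 such fits, and 0 lower.

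T cell genes other than *Cd3e* and *Cd3g* did not follow a common direction. Of 18 tested of 23, 3 were called higher and 0 lower in Cdk1 Liv-/- whole liver, beside 38% and 7.53% of all genes. The list median was 0.03. With median-ratio scaling 1 was called higher and 1 lower, and the median turns to -0.11. *Thy1*, a surface glycoprotein that T cells share with some stromal cells, rose by 0.78, *Themis*, a T cell development gene, by 0.50 and *Cd8b1*, of the CD8 coreceptor, by 0.30. *Thy1* was called in 6 of 6 fits with a library left out, and *Themis* and *Cd8b1* in 1 of 6 each, and *Cd8b1* does not pass the filter with median-ratio scaling. In hepatocytes 3 were called higher and 3 lower, beside 12.1% and 6.61% of all genes, with a list median of -0.16. *Trbc2* was at -0.72, *Icos* at -0.68 and *Zap70* at 1.01. Of these *Zap70* was called in 6 of 6 and the others in 1 of 6 fits with a library left out. *Themis* also rose in hepatocytes, by 0.68 (adjusted p = 0.0269), in 6 of 6 such fits. The list median there was -0.26 without WT replicate 2 and -0.07 without WT replicate 3. Unlike the T cell members, *Zap70* was higher in hepatocytes than in whole liver of Cdk1 Liv-/- mice, with means of 1.45 and 0.767 FPKM, and *Themis* stood at 0.323 and 0.267 FPKM. Of 4 genes of gamma delta T cells 0 were called in either compartment with limma, and 0 had an unadjusted p under 0.05, while 1 was called lower in whole liver with median-ratio scaling.

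For NK and cytotoxic genes, 15 of 22 were tested. In hepatocytes 0 were called higher and 5 lower, beside 12.1% and 6.61% of all genes, with a list median of -0.39. The count called lower was 1 to 7 with a library left out, with 1 if WT replicate 1 is missing, 2 if Cdk1 Liv-/- replicate 2 is, 3 if replicate 3 of either genotype is and 7 if WT replicate 2 is. Without WT replicate 3 the median was -0.25. *Gzmb*, granzyme B, was at 3.65, 4.88 and 2.27 FPKM in WT and at 1.70, 1.71 and 1.14 FPKM in Cdk1 Liv-/- whole liver, and at 1.49, 0.91 and 1.92 FPKM in WT and at 0.44, 0.36 and 0.13 FPKM in Cdk1 Liv-/- hepatocytes. Like *Gzma*, it did not overlap between genotypes in either compartment. *Gzmb* fell by 1.25 in hepatocytes (adjusted p = 0.0324) and by 0.99 in whole liver (adjusted p = 0.0360), and was called in 5 of 6 fits with a library left out in each. *Klrd1*, which encodes the CD94 receptor chain of NK cells, was at 1.84, 1.90 and 1.77 FPKM in WT and at 2.78, 3.84 and 3.49 FPKM in Cdk1 Liv-/- whole liver, and rose by 0.72 (adjusted p = 0.00901). So in whole liver 1 gene of the list was called higher and 2 lower, beside 38% and 7.53% of all genes. The list median was -0.06. That median ran from -0.14 to 0.11 with a library left out and was -0.15 with median-ratio scaling. The other gene called lower is *Klre1*, which encodes a lectin-like receptor of NK cells and fell by 0.35 (adjusted p = 0.0622), in 3 of 6 fits with a library left out. The receptor genes thus did not share a direction, *Klrb1c* being at 0.14 and not called.

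**Figure D5:**
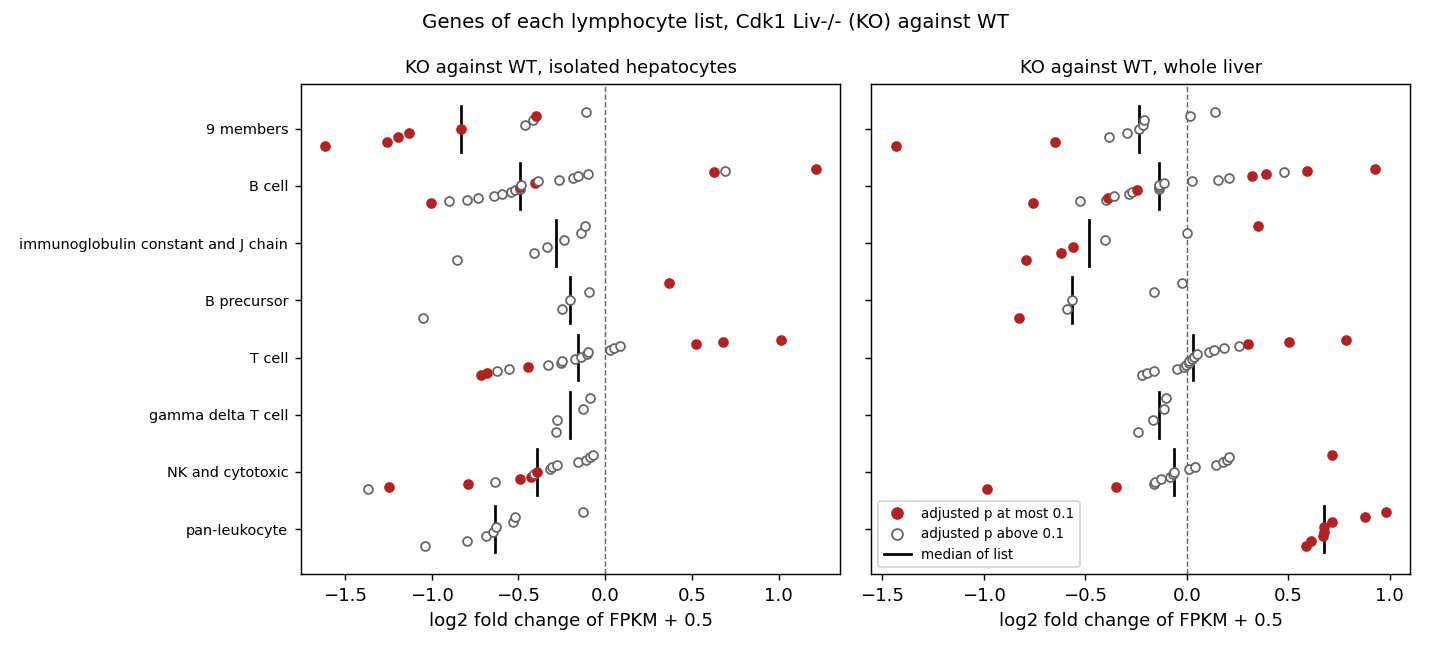
Log2 difference between Cdk1 Liv-/- and WT of each tested gene of the 9 members, the lymphocyte lists and the pan-leukocyte list, in hepatocytes and in whole liver (n = 3 libraries a group), with called genes filled and the median of each list as a line. Granzyme genes *Gzma* and *Gzmb* lie at -1.43 and -0.99 in whole liver, and *Klrd1* at 0.72.

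The genes most like each lineage over the 12 libraries were found by Pearson correlation of log2 values with the mean of the members, over libraries that fall into the 4 groups, so r is a description and has no p. For the B cell genes these were *Spib* (r = 0.995), *Pou2af1* (r = 0.984) and *Igkc* (r = 0.981), of which *Spib* and *Pou2af1* encode transcriptional regulators of B cells. For the T cell genes they were *Slx1b* (r = 0.976), *Trbc2* (r = 0.969) and *Gm9958* (r = 0.967). For the NK and cytotoxic genes they were *Tmem198b* (r = 0.962), *Trbc2* (r = 0.962) and *Pilrb1* (r = 0.961). *Trbc2*, a constant region of the T cell receptor beta chain, is thus near both the T and the NK members.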

How the data were processed

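Polyadenylated RNA of isolated hepatocytes and whole liver was sequenced as single-end reads, and the authors aligned the reads with STAR and deposited FPKM from RSEM 1.2.31 on mm10. The 9 genes were taken by symbol. Genes with a mean of at least 0.1 FPKM over the 12 libraries (17386 of 47069) were tested with limma 3.58.1 in R 4.3.3, eBayes with a trend, on log2(FPKM + 0.5) without scaling between libraries, each pair of groups on its own and the interaction on all 12. Python 3.11.15 was used for descriptions, and the test was checked on simulated data. Read counts were not used here, and depth was estimated from steps in the FPKM of genes with 1 transcript of 300 to 900 bp. At the fitted step 55.9% to 63.5% of such genes lay within 0.1 read of a whole number, against 13.9% to 15.5% at other steps. Reads of a gene are approximate, from its longest transcript in GENCODE.

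Named genes are the 9 members, label checks, and of each cell type list the most abundant and, among those called, the largest and smallest differences, with the 3 genes most correlated (mean of at least 0.5 FPKM) with each lineage. *Ighe*, *Iglc1* and *Iglc3* were named after their values were seen. The members and lists were chosen with earlier results of these data known. Alternatives were other pseudocounts, filters and scalings, no moderation, a shared spread, a fold threshold, a replicate block and leaving out each library. Scaling factors by median ratio were 0.869 to 1.19, and column sums 649066 to 698265.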

Additional observations from a re-analysis of the deposited data

Results flagged for a closer look

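In the limma interaction of genotype and compartment, 21 of the genes named from the cell type lists were called (adjusted p not above 0.1). Their genotype difference depended on the compartment, and none of the 9 lymphocyte genes was among them. Over all genes, 2.35% were called with the higher difference in hepatocytes and 7.49% with the lower. The named genes were taken partly for being called between genotypes in the same data, so their number cannot be set against these shares. Values are the log2 difference between Cdk1 Liv-/- and WT in hepatocytes minus that in whole liver. Among leukocyte genes it was -1.40 for *Cd52* and -1.24 for *Ptprc*. Of the NK and T cell genes, *Klrd1* was at -1.03, *Ncr1* at -0.634, *Thy1* at -0.924 and *Zap70* at 1.00. Macrophage and monocyte genes were at -1.57 for *Adgre1*, -2.06 for *Marco*, -1.45 for *Vsig4*, -1.23 for *Plac8*, -1.07 for *Ccr2* and -1.95 for *Lyz2*. Endothelial genes were at -2.09 for *Oit3*, -1.71 for *Fcgr2b* and -1.51 for *Clec4g*, and stellate cell genes at -1.67 for *Dcn*, -1.49 for *Pdgfrb* and -1.54 for *Hand2*. Hepatocyte genes were at 0.582 for *Hnf4a*, 1.61 for *Cps1* and 0.487 for *Serpina1c*.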

How the results depend on the processing

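Of 360 differences of single members under the settings that can move them (pseudocount, scaling, a library left out), 353 kept their direction. The 7 that did not are all in whole liver between genotypes. *Nkg7* was at -0.16 with median-ratio scaling. With a library left out it ran from -0.17 to 0.28, *Cd79b* from -0.54 to 0.033 and *Klrb1c* from -0.065 to 0.32. The count between genotypes in hepatocytes, 6, was 1 with no filter and 2 without moderation, and 2 to 6 with a library left out. In whole liver the count of 2 was 0 with no filter, 0 without moderation, 1 with a shared spread, 1 with the fold threshold, and 0 to 3 with a library left out. Between compartments in WT the count of 2 was 1 with a pseudocount of 0.1, 0 with no filter, 1 with the same sum, 0 with median-ratio scaling, 0 without moderation, 7 with a shared spread, 1 with the fold threshold, and 0 to 9 with a library left out. For Cdk1 Liv-/- mice it was 9 to 9 with a library left out, and 8, without *Cd3e*, with no filter, with the filter at 0.5 FPKM or with the fold threshold, and for the interaction 0 to 0, also with WT hepatocyte replicate 3 and Cdk1 Liv-/- whole liver replicate 3 left out together, an alternative chosen after seeing the data. With no filter more genes are tested; the cause of the other moves was not tested. A filter at 0.5 FPKM leaves out *Cd3e*.

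With the replicate number as a replicate block, the counts were 2 between genotypes in hepatocytes, 1 in whole liver and 0 between compartments in WT. Libraries of the same number had correlations of -0.317 to 0.239 over 18 pairs, so the numbers were not taken as pairs.

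With 3 libraries a group and few reads for the lowest genes, small differences are not detectable. *Ms4a1* and *Cd3e* in Cdk1 Liv-/- hepatocytes rest on at most 8 reads a library, and reads are estimates. Cells were not counted, and no protein was measured.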

Other observations

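The chemokines and survival factors that lymphocytes respond to differed in both directions between genotypes. *Cxcl10*, a ligand of the receptor CXCR3 on activated T and NK cells, was at 6.64, 6.84 and 5.59 FPKM in WT and at 65.16, 43.59 and 25.54 FPKM in Cdk1 Liv-/- whole liver, and rose by 2.63 (adjusted p = 0.00432, limma). In hepatocytes *Cxcl10* was at 3.89, 2.99 and 3.57 FPKM in WT and at 12.99, 17.59 and 15.12 FPKM in Cdk1 Liv-/- samples, and rose by 1.98. *Cxcl13*, which attracts B cells through CXCR5, rose by 1.66 in whole liver, from a low level of 0.29, 0.09 and 0.11 FPKM in WT. *Cxcl12*, the ligand of CXCR4, fell by 1.22 in hepatocytes and by 0.53 in whole liver. *Il15*, a survival factor of NK cells, fell by 1.05 in hepatocytes, in 3 of 6 fits with a library left out. Over the list of 11 tested, 3 were called higher and 2 lower in hepatocytes, and 5 higher and 1 lower in whole liver, or 3 and 2 with median-ratio scaling. Of all genes, 12.1% were called higher and 6.61% lower in hepatocytes, and 38% and 7.53% in whole liver.

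Of 6 genes of plasmacytoid dendritic cells, 5 were called higher in Cdk1 Liv-/- whole liver, with a median of 0.51 (4 with median-ratio scaling), and 0 in hepatocytes with limma (0 at an unadjusted p under 0.05). Against hepatocytes, 0 of these 6 were called higher in WT whole liver, with 2 above 0, 4 below 0 and a median of -0.057. In Cdk1 Liv-/- mice 3 of the 6 were called higher in that comparison, with a median of 0.42. Cholangiocyte genes, led by *Spp1*, were called higher in 5 of 6 in both compartments, and in 3 of 6 in whole liver with median-ratio scaling. In whole liver, 2 of 9 endothelial genes were called higher (0 with median-ratio scaling) with a median of 0.06, 3 of 10 erythroid genes lower with a median of 0.08, and of 10 stellate cell genes 4 higher and 1 lower. The whole-liver counts between genotypes stand beside 38% of all genes called higher and 7.53% called lower. The medians of the endothelial and erythroid lists turn to -0.15 and -0.14 with median-ratio scaling. With a library left out, 3 to 6 of the plasmacytoid and 3 to 6 of the cholangiocyte genes were called higher in whole liver. Of 8 hepatocyte genes, 5 were called lower in whole liver, and 2 higher and 2 lower in hepatocytes.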
